A study of Mus musculus with 14 samples.

Results

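The 10 genes described here were chosen by name as enzymes that detoxify quinones, carbonyls and epoxides: the quinone reductases Nqo1 and Nqo2, the carbonyl reductases Cbr1 and Cbr3, the prostaglandin and alkenal reductase Ptgr1, the aldo-keto reductases Akr1b8, Akr1b3 and Akr1a1, and the epoxide hydrolases Ephx1 and Ephx2. They are 10 of the 34452 mouse genes listed, and all 10 were among the 16289 genes with enough reads to test. Such substrates are reactive compounds that cells meet from outside or make themselves when lipids, catechols and bisretinoids are oxidized. Cytosolic and microsomal enzymes convert them to less reactive alcohols, hydroquinones and diols, most of them with NADPH as the electron donor, and several of their genes are textbook targets of Nrf2, the transcription factor that binds antioxidant response elements. The retinal pigment epithelium (RPE), the monolayer between photoreceptors and choroid, digests shed outer segments and so handles a steady load of oxidized lipid and retinoid.

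RNA was taken at P20 (postnatal day 20) from the RPE of 7 rd1 mice, which lack Pde6b function and lose their rods early. One eye of each mouse received both AAV-Best1-Nrf2 and AAV-Best1-GFP (Nrf2 eye), and the other eye AAV-Best1-GFP without the Nrf2 vector (control eye). The human Best1 promoter, used to confine expression to the RPE, drives both transgenes, the Nrf2 cDNA is human, and the Nrf2 eye had 1 vector more than its control, so the effect of Nrf2 and that of an added vector cannot be told apart. Eyecup lysate rather than sorted cells was sequenced, 1 library for each of the 14 eyes, with 16451241 to 50110846 mouse counts per library.

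The human NFE2L2 transcript, which comes from the vector, checks the labels. It stood at 1165 to 8787 CPM (counts per 1000000 mouse counts) in Nrf2 eyes and at 1.12 to 1164 in control eyes. The top of the control range, 1164, is the library labelled control 3, and the bottom of the Nrf2 range, 1165, is the library labelled Nrf2 4. These libraries carry different mouse numbers, yet of all 91 pairs of libraries they were the most alike. The log2 values of their genes differed with an SD of 0.21, against 0.35 in the next closest pair and 0.60 to 1.05 between the eyes of 1 mouse. Their counts differed by 4.14 times the median chi-square that sampling of reads alone gives, which in amplified RNA does not tell separate tissue from the same tissue, nor which group each belongs to. Each was kept in its labelled group, and values without mice 3 and 4 stand beside the results. The cause was not tested. The RPE markers were present in every library, with a summed level of 16575 to 34441 CPM. Of 12, edgeR called 1: Rpe65, the retinoid isomerase, was lower in Nrf2 eyes (log2 change -2.17, SE 0.37, edgeR adjusted p = 0.0198). Ttr, transthyretin, was higher on average (log2 change 1.58, SE 0.45, edgeR adjusted p = 0.10) and passed at an unadjusted p below 0.05, in DESeq2 (1.60, adjusted p = 0.000781) and in voom (1.96, adjusted p = 0.00656). Among 8 cone markers, 2 were called lower, and the 8 together summed to 18.9 to 99.4 CPM in Nrf2 eyes and 43.3 to 1054 CPM in control eyes. Surface epithelium markers ranged from 1826 to 48978 CPM, with 0 of 6 called. The 8 rod markers (7.18 to 504 CPM), 10 of inner retina and Muller glia (1100 to 2881 CPM), 7 of endothelium (at most 243 CPM), 8 of immune cells (115 to 503 CPM), 6 of fibroblasts (110 to 1071 CPM), 5 of lens (23.6 to 2936 CPM), 4 of muscle (10.2 to 198 CPM) and 5 of blood (344 to 3743 CPM) had 0 called as well. Over these 59 markers of 9 lists, 1 was higher and 8 were lower at an unadjusted p below 0.05, 4 of the 8 being rod genes, and DESeq2 called 3 higher and 8 lower and voom 1 higher and 9 lower. Among all 16289 genes tested, edgeR called 559, 2955 passed at that unadjusted p, DESeq2 called 1943 and voom 2594. Of the cone markers all 8 were lower at an unadjusted p below 0.05. The part of these tissues in the results below was not tested. In bulk RNA, fewer cells of a type and less RNA per cell cannot be told apart.

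Across all genes, edgeR's quasi-likelihood test with the mouse as a block called 559 of 16289 (3.43%) at an adjusted p below 0.05. Higher in Nrf2 eyes were 479 (2.94%) and lower were 80 (0.491%). That balance differed between fits. Without mouse 4 edgeR called 977 higher and 1018 lower, and without mice 3 and 4 it called 499 higher and 262 lower. Over all 7 mice DESeq2 called 1238 higher and 705 lower, and voom 1586 higher and 1008 lower. The cause of these differences was not tested. Of the 10 detoxifying enzymes, 5 were called higher (Nqo1, Cbr1, Cbr3, Ptgr1 and Ephx1), 0 lower, and 5 did not pass (Nqo2, Akr1b8, Akr1b3, Akr1a1 and Ephx2). The median change of the 10 was 1.00 (log2), against -0.04 over all genes tested. At an unadjusted p below 0.05, 7 members were higher and 0 lower, and DESeq2 called 7 higher and voom 6 higher, each with 0 lower. Over all 16289 genes tested, 2955 passed at that unadjusted p, and DESeq2 called 1943 and voom 2594. Without mice 3 and 4 the same 5 passed. The quinone reductases, the carbonyl reductases and the epoxide hydrolases each held a gene that rose by more than its relative, while 0 of the 3 aldo-keto reductases passed.

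The sequences around the start sites of both related pairs with a promoter for each gene are shown because the genes of a pair share a chemistry but differ in the size of their response. They come from RefSeq (GRCm38.p6), run from 250 bases before to 50 bases after the annotated start, read 5′ to 3′ along the gene's strand, and carry in capitals each GCGTG or its reverse complement CACGC, the core of the xenobiotic response element bound by the aryl hydrocarbon receptor.
Nqo1, chr8:107403156-107403455, minus strand: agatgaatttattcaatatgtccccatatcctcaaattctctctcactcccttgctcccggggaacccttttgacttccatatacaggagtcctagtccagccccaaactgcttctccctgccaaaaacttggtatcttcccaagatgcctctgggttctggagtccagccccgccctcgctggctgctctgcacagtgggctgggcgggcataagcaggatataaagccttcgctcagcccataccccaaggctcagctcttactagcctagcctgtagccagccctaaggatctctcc
Nqo2, chr13:33964409-33964708, plus strand: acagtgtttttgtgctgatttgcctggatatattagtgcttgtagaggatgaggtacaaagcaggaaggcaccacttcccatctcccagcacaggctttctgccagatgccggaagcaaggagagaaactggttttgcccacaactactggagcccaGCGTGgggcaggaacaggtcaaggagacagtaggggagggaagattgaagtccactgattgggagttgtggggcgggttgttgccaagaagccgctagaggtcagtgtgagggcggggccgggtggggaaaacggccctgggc
Cbr3, chr16:93682969-93683268, plus strand: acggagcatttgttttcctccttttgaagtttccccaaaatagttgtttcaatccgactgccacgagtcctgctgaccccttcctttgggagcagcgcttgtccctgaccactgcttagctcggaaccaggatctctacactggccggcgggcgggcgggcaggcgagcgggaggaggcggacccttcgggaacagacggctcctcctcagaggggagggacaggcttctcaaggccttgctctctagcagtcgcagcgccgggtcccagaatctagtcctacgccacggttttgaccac
Cbr1, chr16:93607587-93607886, plus strand: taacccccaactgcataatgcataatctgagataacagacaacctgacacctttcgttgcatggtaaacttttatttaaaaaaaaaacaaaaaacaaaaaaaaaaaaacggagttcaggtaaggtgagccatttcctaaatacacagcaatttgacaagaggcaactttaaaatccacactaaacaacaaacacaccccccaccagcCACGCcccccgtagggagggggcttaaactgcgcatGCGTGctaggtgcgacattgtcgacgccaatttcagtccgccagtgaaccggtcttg
Of the 10 genes, 8 had a promoter in the table, in 9 windows, since Nqo2 has 2 starts. The core of the antioxidant response element, TGACNNNGC on either strand, was in 0 of the 9 windows, and 12.4% of all 32851 windows of this length held it. GCGTG was in 4 of 9 (1 window of Akr1b8, both of Nqo2 and that of Cbr1) and in 32.4% of all. The windows of Nqo1, Cbr3, Ptgr1 and Ephx1, which rose most, held neither core, and nor did that of Akr1a1, which was not called. The window of Cbr1 held GCGTG 2 times. No match says only that these letters are not in these windows.

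Nqo1 encodes the NAD(P)H quinone dehydrogenase that reduces quinones straight to hydroquinones and so avoids the semiquinone radical. It lies on chromosome 8 (chr8:107388225-107403206, GRCm38, minus strand) and has 6 exons. In Nrf2 eyes Nqo1 ranged from 198 to 646 CPM with a median of 455, and in control eyes from 87.4 to 194 CPM with a median of 123. The groups did not overlap, although Nrf2 4 (198 CPM) and control 3 (194 CPM) nearly touched. Overlap is given here and below as a description only, since its share over all genes tested was not counted. Nqo1 rose 4.14-fold (log2 2.05, SE 0.26, edgeR adjusted p = 0.00982), with 7 of 7 mice in the same direction. The difference within a mouse ran from 0.49 (log2) in mouse 4 to 2.68 in mouse 1, and without mice 3 and 4 the fitted change was 2.35 (adjusted p = 0.00356). None of its 31-base stretches occurs in another gene's transcript, so its reads are its own.

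Nqo2, the relative of Nqo1 that takes its electrons from dihydronicotinamide riboside in place of NAD(P)H, did not pass the test. It lies on chromosome 13 (chr13:33964687-33988443, plus strand). Levels of Nqo2 were 17.7 to 26.6 CPM (median 23.1) in Nrf2 eyes and 21.5 to 32.9 CPM (median 26.1) in control eyes. Both groups overlapped over most of their range, and 2 of 7 mice had more in the Nrf2 eye. The fitted change was -0.09 (log2, SE 0.12, adjusted p = 0.74). The lowest Nqo2 value of all, 17.7 CPM, came from Nrf2 1, the eye with the most vector transcript.

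The response of Nqo1 exceeded that of Nqo2 in every mouse. The log2 ratio of Nqo1 to Nqo2 was 2.13 higher in the Nrf2 eye than in the control eye (SD 0.85, n = 7, 95% interval 1.34 to 2.91). An exact sign-flip test over the 7 mice, two-sided and adjusted over 4 such pairs of genes, gave p = 0.0208, with 0.0156 the smallest unadjusted p it can give. Mouse 4 had the least difference, 0.45, and the other 6 mice had 2.02 to 3.11. Without mice 3 and 4 the mean was 2.47, but 5 mice cannot reach the threshold and the adjusted exact p was 0.0833.

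**Figure D1:**
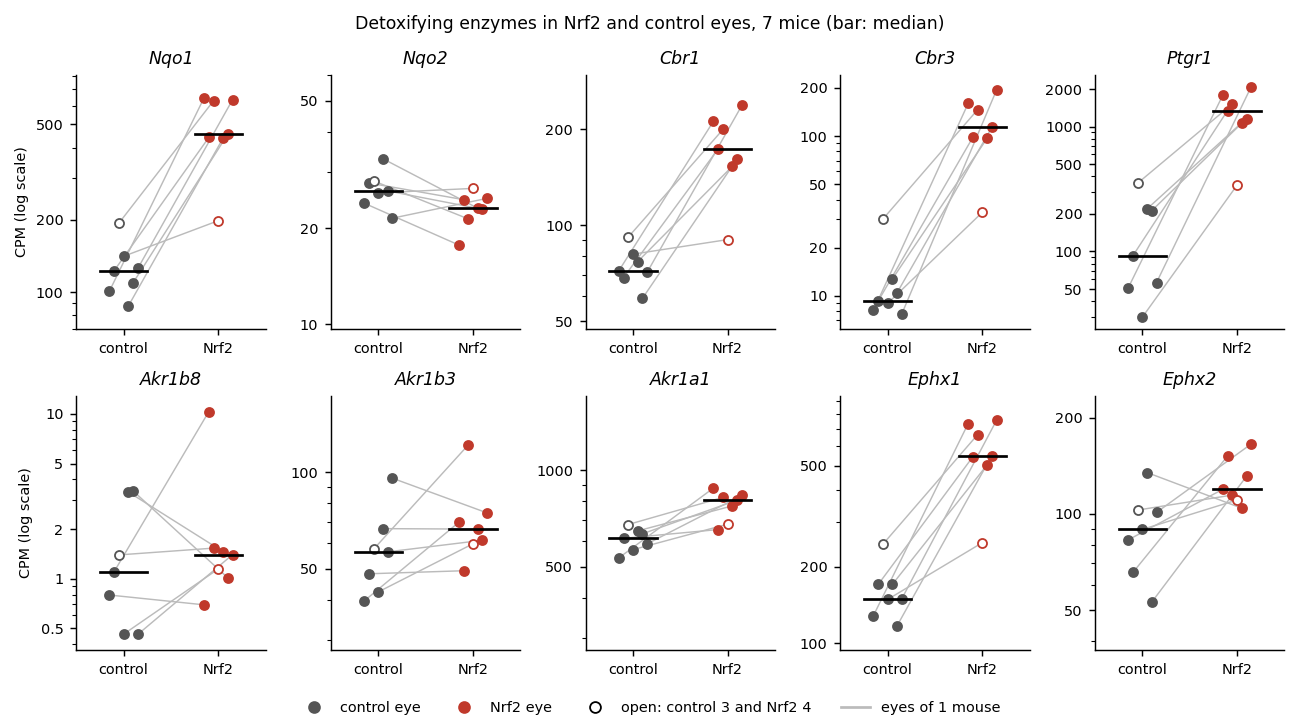
CPM of the 10 enzymes on a log axis in control (grey) and Nrf2 (red) eyes, 7 per group, with a line joining the eyes of a mouse, a bar at each group's median and open symbols for control 3 and Nrf2 4. The groups do not overlap in Nqo1, Cbr3 and Ephx1, and in Cbr1 and Ptgr1 they overlap through the open symbols alone. The share of all genes tested without overlap was not counted.

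Both carbonyl reductases rose, Cbr3 by far more than Cbr1. They encode NADPH-dependent short-chain enzymes that reduce quinones, ketones and prostaglandins to alcohols, and they lie on the same strand of chromosome 16 (Cbr1 at chr16:93605853-93610505, Cbr3 at chr16:93683215-93690990, 3 exons each). Cbr3 was at 7.69 to 30.2 CPM (median 9.25) in control eyes and at 33.3 to 194 CPM (median 113) in Nrf2 eyes. The highest control, 30.2 CPM, was control 3, the other 6 stayed at or below 12.7 CPM, and the groups did not overlap. Its change was 10.5-fold (log2 3.39, SE 0.36, edgeR adjusted p = 0.00935), which only 0.424% of all genes tested exceeded. All 7 mice agreed in direction, from 1.89 in mouse 4 to 4.65 in mouse 7, and without mice 3 and 4 the change was 3.84 (adjusted p = 0.00356).

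Cbr1, the more abundant of the pair in every library, ranged from 90.2 to 238 CPM (median 174) in Nrf2 eyes and from 59.0 to 91.8 CPM (median 71.9) in control eyes. The groups met at 1 point, where control 3 (91.8 CPM) lay just above Nrf2 4 (90.2 CPM), and the next lowest Nrf2 eye stood at 153 CPM. Cbr1 rose 2.50-fold (log2 1.32, SE 0.18, edgeR adjusted p = 0.0111), with 7 of 7 mice higher, by 0.15 in mouse 4 to 1.74 in mouse 7. Without mouse 7 the change was 1.23 and its adjusted p 0.0501, just short of passing, whereas without mice 3 and 4 it was 1.51 (adjusted p = 0.00509). Another gene, Gm5678, holds 14.5% of the 31-base stretches of Cbr1, but its counts came to at most 2.03% of those of Cbr1 in any library.

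Within a mouse, the log2 ratio of Cbr3 to Cbr1 was 2.07 higher in the Nrf2 eye (SD 0.60, n = 7, 95% interval 1.52 to 2.62, exact sign-flip test, adjusted p = 0.0208). All 7 mice lay above 0, from 1.15 to 2.91. The log2 ratio of Cbr3 to Cbr1 averaged -2.73 in control eyes and -0.65 in Nrf2 eyes, so that Cbr3 stayed below Cbr1 in both. Without mice 3 and 4 the difference was 2.32 (adjusted exact p = 0.0833, n = 5, too few to reach the threshold). Only 2.54% of the 31-base stretches of Cbr3 also occur in Cbr1.

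Ptgr1 and Cbr3 had the largest fitted changes of the 10, with Ptgr1 above Cbr3 over all 7 mice but below it without the block (3.30 against 3.40) and without mouse 4 (3.59 against 3.61), and the difference between them was not tested. Its enzyme reduces the carbon-carbon double bond of reactive alkenals such as hydroxynonenal, an end product of lipid peroxidation, and also inactivates prostaglandins and leukotriene B. It lies on chromosome 4 (chr4:58965439-58987119, minus strand, 10 exons). In control eyes Ptgr1 spread widely, from 29.7 to 352 CPM (median 92.4), and in Nrf2 eyes it ran from 340 to 2097 CPM (median 1349). Control 3 at 352 CPM lay above Nrf2 4 at 340 CPM, and no other libraries overlapped, the next highest control being at 219 CPM and the next lowest Nrf2 eye at 1077 CPM. Ptgr1 rose 12.2-fold (log2 3.61, SE 0.49, edgeR adjusted p = 0.0110), in 7 of 7 mice. Within mice the rise was 2.11 to 5.22 (log2), least in mouse 3. Vector transcript stood at 1164 CPM in the control eye of mouse 3 and at 1.18 CPM in that of mouse 6, which rose by 2.45. The part of the vector in these differences was not tested. Without mice 3 and 4 the fitted change of Ptgr1 was 3.88 (edgeR adjusted p = 0.0208). Control 5 and control 6, with the next highest Ptgr1 (219 and 212 CPM), also had the highest surface epithelium markers of all libraries (31182 and 48978 CPM). Control 5 held 175 CPM of vector transcript as well, the highest of the controls after control 3. The part of the other tissue and of the vector in these Ptgr1 levels was not tested.

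None of the 3 aldo-keto reductases was called by edgeR, while 1 of them, Akr1a1, passed at an unadjusted p below 0.05, in DESeq2 and in voom. Akr1a1, the aldehyde reductase that in mice also serves ascorbate synthesis from glucuronate, lies on chromosome 4 (chr4:116636510-116651680, minus strand). It was the steadiest of the abundant members, at 653 to 881 CPM (median 807) in Nrf2 eyes and 533 to 677 CPM (median 613) in control eyes. Control 3 exceeded the lowest Nrf2 eye, Nrf2 2, and the other 6 controls stayed below it. All 7 mice had more Akr1a1 in the Nrf2 eye, by 0.09 to 0.73 (log2), yet the fit gave 0.47 (SE 0.14, adjusted p = 0.12). Without the block by mouse the change of 0.48 passed (edgeR adjusted p = 0.0374), as it did in DESeq2 (0.49, adjusted p = 0.00582) and in voom with quality weights (0.53, adjusted p = 0.0139).

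Akr1b3, aldose reductase, which turns glucose into sorbitol and also reduces lipid aldehydes, measured 49.2 to 122 CPM (median 66.4) in Nrf2 eyes and 39.6 to 95.8 CPM (median 56.4) in control eyes. The groups overlapped, with Nrf2 3 and control 7 as the high libraries, and 5 of 7 mice had more in the Nrf2 eye. Its change was 0.43 (SE 0.21, adjusted p = 0.31). It lies at chr6:34302434-34317478. The pseudogene Gm6644 holds 61.0% of its 31-base stretches and took 13.7 CPM on average in control and 15.3 CPM in Nrf2 eyes, so the level of Akr1b3 depends on how the counting split those reads. With Gm6644 added, the log2 ratio of the group means went from 0.31 to 0.28.

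Akr1b8, a reductase of retinal and lipid aldehydes that lies beside Akr1b3 (chr6:34354119-34368463, plus strand), was barely present, with 13 to 170 counts per library. The 7 Nrf2 eyes stood at 0.69 to 10.3 CPM (median 1.40) and the 7 control eyes at 0.46 to 3.41 CPM (median 1.10). A single library, Nrf2 2, held the 10.3 CPM, the other 6 Nrf2 eyes lay at or below 1.53 CPM, and the groups overlapped. That library also was the shallowest, had 2.57% of its counts in pseudogenes against 1.06% to 1.17% in the others, and their part in the value was not tested. The change of 0.55 had an SE of 0.63 (adjusted p = 0.68), and without mouse 2 it was 0.10 (adjusted p = 0.92). The highest controls, control 5 and control 6 (3.36 and 3.41 CPM), were again those with the most surface epithelium markers. Akr1b10, which shares 7.08% of the stretches of Akr1b8, was more abundant, at 13.1 CPM on average in control and 10.9 CPM in Nrf2 eyes. No difference between the responses of Akr1b8 and Akr1b3 was found, but the estimate was loose: 0.11 (95% interval -1.59 to 1.80, exact adjusted p = 0.89), with 3 of 7 mice above 0.

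**Figure D2:**
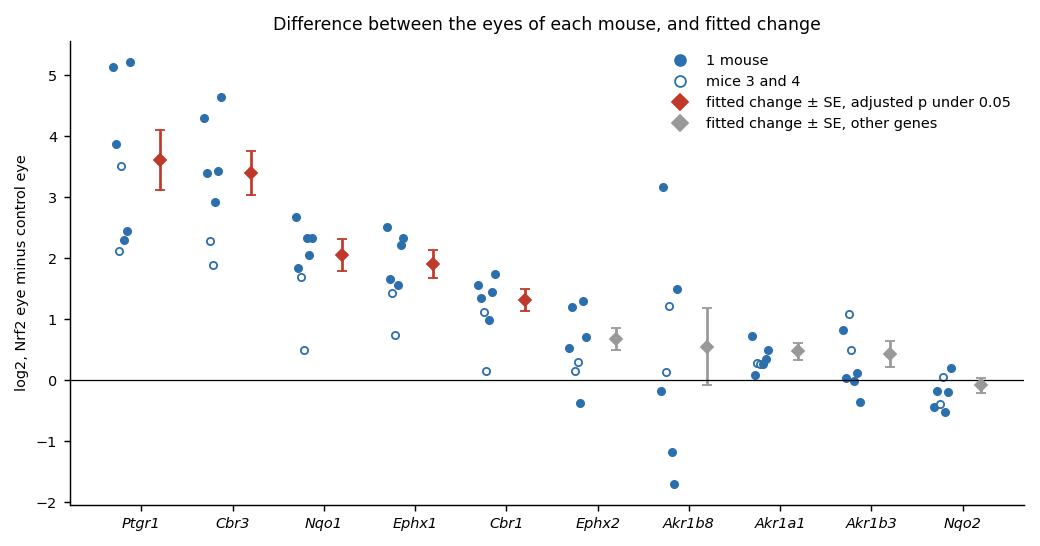
Log2 difference between the Nrf2 and the control eye of each of 7 mice (blue points, open for mice 3 and 4) and the fitted change with its SE (diamonds, red where the adjusted p was below 0.05) for the 10 enzymes, ordered by the fitted change. In the 5 genes with red diamonds every mouse lies above 0, and Akr1b8 has the widest spread, from -1.69 to 3.16.

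Among the epoxide hydrolases, the microsomal enzyme rose and the soluble one did not pass. Ephx1, which hydrolyzes epoxides of drugs and aromatic compounds to diols in the endoplasmic reticulum, lies on chromosome 1 (chr1:180976210-181020904, minus strand). Nrf2 eyes held 249 to 754 CPM of Ephx1 (median 548), and control eyes 117 to 246 CPM (median 150). The groups did not overlap, but the highest control, control 3 at 246 CPM, came within a few CPM of the lowest Nrf2 eye, Nrf2 4 at 249 CPM. Ephx1 rose 3.74-fold (log2 1.90, SE 0.23, edgeR adjusted p = 0.00935), in 7 of 7 mice, by 0.74 in mouse 4 to 2.51 in mouse 1. Without mice 3 and 4 the change was 2.15 (adjusted p = 0.00511).

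Ephx2, the soluble hydrolase that opens epoxides of fatty acids and ends their signaling, lies on chromosome 14 (chr14:66084374-66124500, minus strand, 19 exons). It stood at 104 to 165 CPM (median 119) in Nrf2 eyes and 53.0 to 135 CPM (median 89.4) in control eyes. Control 5, at 135 CPM, was the 1 control inside the Nrf2 range, and mouse 5 was the 1 mouse of 7 with less Ephx2 in the Nrf2 eye. The fit gave 0.67 (SE 0.18, adjusted p = 0.0844), which passed without the block by mouse (0.63, adjusted p = 0.0403) and in DESeq2 (0.69, adjusted p = 0.00877) but not in voom (0.48, adjusted p = 0.0798). The response of Ephx1 exceeded that of Ephx2 in 7 of 7 mice, by 1.23 on average (SD 0.65, 95% interval 0.63 to 1.83, exact sign-flip test, adjusted p = 0.0208). The least differences were 0.44 in mouse 4 and 0.46 in mouse 2, and without mice 3 and 4 the mean was 1.38 (adjusted exact p = 0.0833, n = 5).

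**Figure D3:**
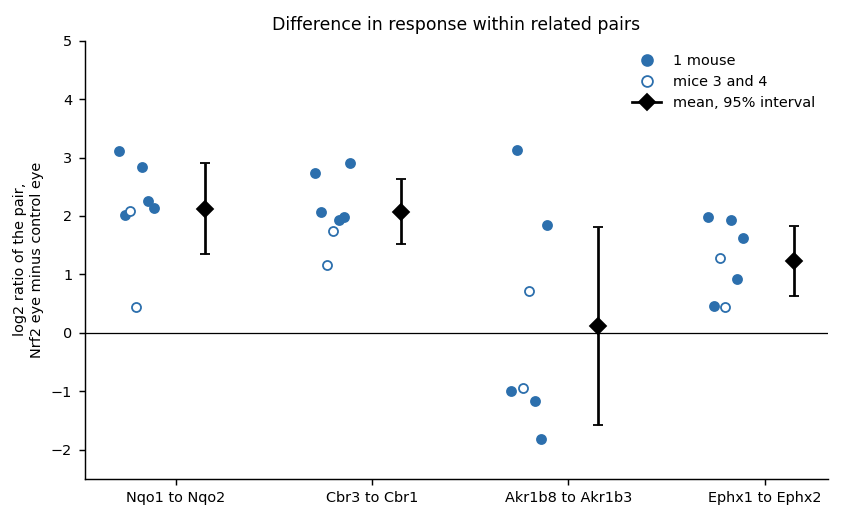
Difference in response within 4 pairs of related enzymes: the log2 ratio of the first to the second gene in the Nrf2 eye minus that in the control eye, for each of 7 mice (points, open for mice 3 and 4), with the mean and its 95% interval (diamonds). In the Nqo, Cbr and Ephx pairs all 7 mice lie above 0, while the Akr1b pair runs from -1.81 to 3.13.

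Levels were compared between genes per length. Divided by transcript length (CPM per kilobase of the longest coding transcript), Akr1a1 led in control eyes at 428 ± 35.1 (SD, n = 7), followed by Ephx1 at 92.9 ± 24.1, Nqo1 at 81.0 ± 22.3, Ptgr1 at 63.1 ± 52.1, Cbr1 at 60.1 ± 8.37, Ephx2 at 44.2 ± 13.1, Akr1b3 at 41.9 ± 13.8, Cbr3 at 10.7 ± 6.83, Nqo2 at 6.92 ± 0.94 and Akr1b8 at 1.15 ± 0.95. From Ephx1 down to Akr1b3 no neighbours in that order differed beyond their spread (exact sign-flip tests over 7 eyes, adjusted over 18 neighbour pairs, p = 0.0563 to 0.71). Akr1a1 stood above Ephx1, Akr1b3 above Cbr3, Cbr3 above Nqo2 and Nqo2 above Akr1b8 in 7 of 7 control eyes (adjusted exact p = 0.0352 each). The order of Cbr3 and Nqo2 depends on the lengths used, 1.17 kilobases for Cbr3 and 3.842 for Nqo2. Before that division Nqo2 averaged 26.6 CPM in control eyes and Cbr3 12.5 CPM. In Nrf2 eyes Ptgr1 came first at 581 ± 246, but not beyond Akr1a1 at 549 ± 58.9, since it was higher in 4 of 7 eyes (adjusted exact p = 0.89). Ephx1 at 328 ± 98.7 and Nqo1 at 317 ± 104 followed without a difference between them (adjusted exact p = 0.14), then Cbr1 at 142 ± 38.7, Cbr3 at 103 ± 44.7, Ephx2 at 62.9 ± 11.2, Akr1b3 at 51.8 ± 16.9, Nqo2 at 5.99 ± 0.75 and Akr1b8 at 1.85 ± 2.55. Nrf2 eyes had 4 neighbour pairs that differed in 7 of 7 eyes (adjusted exact p = 0.0352 each): Akr1a1 above Ephx1, Nqo1 above Cbr1, Cbr1 above Cbr3 and Akr1b3 above Nqo2. The other 3 neighbour pairs there did not pass (adjusted exact p = 0.0563 to 0.21).

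As a share of the summed CPM of the 10 genes, Akr1a1 made up 47.4% ± 4.65 (SD, n = 7) in control eyes and 22.7% ± 7.22 in Nrf2 eyes. Ptgr1 made up 10.2% ± 6.84 and 34.4% ± 7.44. The sum of all 10 genes was 1040 to 1781 CPM in control eyes and 1788 to 5018 CPM in Nrf2 eyes. Nrf2 4 had the lowest sum of its group and control 3 the highest of its own. Ephx1 (12.4% and 15.3%) and Cbr1 (5.80% and 4.78%) kept closer shares.

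The human NFE2L2 level varied among the Nrf2 eyes, which allowed each enzyme to be set against the vector transcript within that group. Nrf2 4 had 1165 CPM of it, and the other 6 eyes 4598 to 8787 CPM. Pearson's r with the vector transcript was taken on log2 values over the 7 Nrf2 eyes. It was 0.98 for Nqo1, 0.98 for Cbr1, 0.98 for Cbr3, 0.99 for Ptgr1 and 0.99 for Ephx1. The share of all genes tested with such an r was not counted. Exact permutation of the 7 eyes, adjusted over 10 genes, gave p = 0.00397 for Cbr1 and Ptgr1 and p = 0.00476 for Nqo1, Cbr3 and Ephx1. Spearman's rho was 0.93 to 0.96 in the 5 genes (adjusted exact p = 0.00926 to 0.0135). Leaving out the eyes farthest from the median vector level, Nrf2 1 and Nrf2 4, gave an r of 0.86 for Nqo1, 0.98 for Cbr1, 0.93 for Cbr3, 0.98 for Ptgr1 and 0.97 for Ephx1 over 5 eyes. Without Nrf2 4 alone, r stayed at 0.90 to 0.97 and the adjusted exact p at 0.0278 to 0.0333. Among the 6 eyes other than Nrf2 4, each of the 5 genes tended to rise with the vector transcript without following its order exactly. Nrf2 1 had more vector transcript than Nrf2 7 (8787 against 8624 CPM) but less Cbr1, Cbr3, Ptgr1 and Ephx1. Nrf2 2 had more vector transcript than Nrf2 6 (5903 against 5515 CPM) but less Nqo1 (441 against 455 CPM).

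The 5 enzymes that were not called had no relation to the vector that passed: r was -0.60 for Nqo2, 0.05 for Akr1b8, 0.31 for Akr1b3, 0.65 for Akr1a1 and 0.46 for Ephx2 (adjusted exact p = 0.10 to 0.89, n = 7). Their rho was -0.54 for Nqo2, -0.14 for Akr1b8, 0.61 for Akr1b3, 0.79 for Akr1a1 and 0.57 for Ephx2 (adjusted exact p = 0.0800 to 0.78). For Nqo2 the sign turned to 0.26 when Nrf2 1 and Nrf2 4 were left out, so its negative r rests on those eyes. Without the same eyes r was -0.06 for Akr1b8, 0.38 for Akr1b3, 0.36 for Akr1a1 and 0.70 for Ephx2. The vector level cannot be told apart from the share of RPE cells that took up the vector. Surface epithelium markers summed to 20344 and 21233 CPM in Nrf2 4 and Nrf2 5, the eyes with the least vector transcript. They summed to 3401 and 1974 CPM in Nrf2 1 and Nrf2 7, which had the most, and to 7475, 9269 and 6381 CPM in Nrf2 2, Nrf2 3 and Nrf2 6. The part of other tissue in these relations was not tested.

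**Figure D4:**
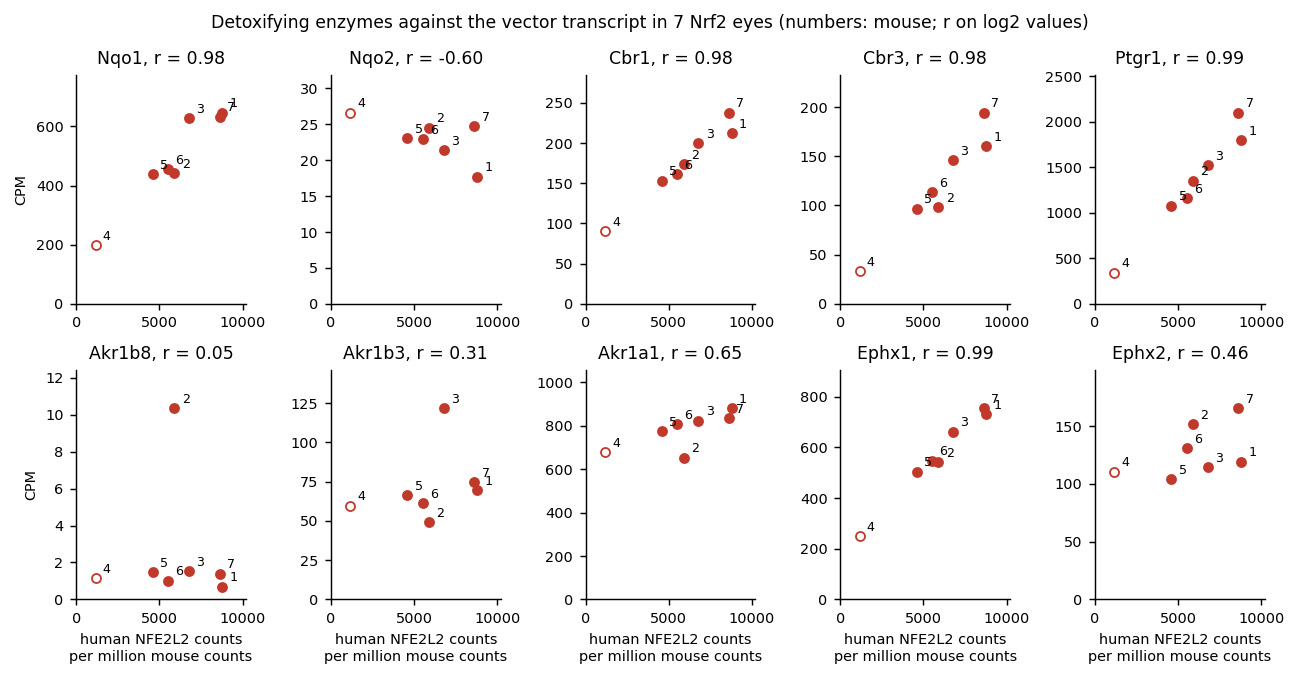
CPM of each enzyme (vertical axis) against human NFE2L2 counts per 1000000 mouse counts (horizontal axis) in the 7 Nrf2 eyes, labelled by mouse, with Nrf2 4 open and Pearson's r of the log2 values above each panel. Nqo1, Cbr1, Cbr3, Ptgr1 and Ephx1 climb with the vector (r of 0.98 or 0.99), and the Akr1b8 panel is flat apart from mouse 2.

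The 14 libraries span Nrf2 and control eyes, so the difference between the groups enters every r taken over them. Across all 14, the log2 CPM of Nqo1, Cbr1, Cbr3, Ptgr1 and Ephx1 correlated with each other. The r among these genes lay between 0.88 (Cbr1 and Ptgr1) and 0.99 (Cbr3 and Ephx1). The r of Nqo2 with them was negative, from -0.62 with Nqo1 to -0.36 with Ptgr1, and was not tested. These values are without TMM, and the fitted change of Nqo2 did not pass (-0.09, edgeR adjusted p = 0.74). Over the same 14 libraries the genes most like Nqo1 were Ctsd (r = 0.99), the lysosomal aspartic protease, Gsta1 (0.99) and Gm3776 (0.99). Most like Cbr1 were Pgrmc1 (0.99), Rexo2 (0.99) and Ypel5 (0.99), and most like Cbr3 were Blvrb (1.00), a biliverdin and flavin reductase, Gsta2 (1.00), a glutathione transferase, and Panx1 (0.99). Among the genes closest to Ptgr1 were G6pdx (0.99), the NADPH-making dehydrogenase of the pentose phosphate pathway, and Osgin1 (0.98). Ephx1 ran with Creg1 (1.00), the glutathione transferase Gstp1 (1.00) and Tmem37 (0.99). For the members that were not called, the closest genes were Mgst1 (0.96), a microsomal glutathione transferase, Fundc2 (0.96) and Steap1 (0.94) for Ephx2, Mgmt (0.97), Mocs1 (0.96) and Cebpb (0.95) for Akr1a1, Thoc6 (0.89), Zfp408 (0.87) and Pnpla2 (0.87) for Nqo2, and Prag1 (0.74), Rcbtb2 (0.73) and Sept10 (0.73) for Akr1b3. Jak1 (0.94), Myh6 (0.93) and Rrm1 (0.93) came closest to Akr1b8, whose values turn on Nrf2 2.

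Of 35 other enzymes of the same chemistry, 28 had enough reads to test, 3 were called higher and 0 lower. Over all genes edgeR called 559 of 16289 (3.43%). At an unadjusted p below 0.05, 8 were higher and 2 lower, DESeq2 called 6 higher and 1 lower, and voom 8 higher and 1 lower. Over all 16289 genes these 3 settings gave 2955, 1943 and 2594. Without mouse 4, 11 were called, 6 higher and 5 lower, against 1995 of 16338 over all genes. The lower ones were Por (-0.85), Cbr2 (-2.41), Adh1 (-1.59), Adh7 (-1.35) and Ephx3 (-1.58, edgeR adjusted p = 0.0237). In mouse 4 the surface epithelium markers summed to 20344 CPM in the Nrf2 eye and 1826 CPM in the control eye, and their part in these calls was not tested. Among 6 other quinone-reducing genes, 1 rose: Cyb5r3, the cytochrome b5 reductase, at 206 to 435 CPM (median 307) in Nrf2 eyes and 156 to 220 CPM (median 181) in control eyes. Control 3 alone among controls reached the Nrf2 range, and Cyb5r3 rose in 7 of 7 mice (log2 0.92, SE 0.14, edgeR adjusted p = 0.0137). Por, which passes electrons to cytochrome P450 enzymes and can reduce quinones to semiquinones, had -0.62 (SE 0.27, adjusted p = 0.27), and Aifm2, a ubiquinone reductase, had 0.12 (SE 0.15, adjusted p = 0.70).

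Of 26 other carbonyl-reducing and glyoxalase genes, 19 were tested and 2 rose. Glo1, which clears methylglyoxal, was at 162 to 241 CPM (median 193) in Nrf2 eyes and 110 to 180 CPM (median 147) in control eyes, overlapping, with a change of 0.51 (SE 0.10, edgeR adjusted p = 0.0348, 7 of 7 mice). Akr1e1, an aldo-keto reductase of anhydrofructose, was at 53.0 to 96.0 CPM (median 73.2) and 43.3 to 61.8 CPM (median 48.9), also overlapping, with a change of 0.63 (SE 0.13, adjusted p = 0.0348, 6 of 7 mice). Both lose their call in the fit without mouse 1, 2, 3, 5, 6 or 7, at changes of 0.47 to 0.54 for Glo1 and 0.55 to 0.65 for Akr1e1. Glo1 loses it also without mice 3 and 4 (0.53, adjusted p = 0.0600), and Cyb5r3 loses its own without mouse 3 or mouse 7 (adjusted p = 0.0518 and 0.0577). Adh5, which oxidizes the glutathione adduct of formaldehyde, had 0.55 (SE 0.13, edgeR adjusted p = 0.0605). It passed in DESeq2 (0.57, adjusted p = 0.00477), in voom (0.65, adjusted p = 0.00347) and in edgeR without the block (0.57, adjusted p = 0.0141). Dcxr, a carbonyl and xylulose reductase, had 0.84 (SE 0.30, edgeR adjusted p = 0.19). It passed in DESeq2 (0.85, adjusted p = 0.0429) and voom (0.96, adjusted p = 0.0269), but not in edgeR without the block (0.75, adjusted p = 0.13). Of the Akr1c genes, Akr1c6 was listed at 0 in all libraries. Akr1c14 averaged 3.54 CPM in Nrf2 and 0.34 CPM in control eyes (change 3.59, SE 1.26, edgeR adjusted p = 0.18). It passed in DESeq2 (3.87, adjusted p = 0.00136), in voom (3.57, adjusted p = 0.0397) and in edgeR without the block (3.51, adjusted p = 0.0318). Cbr2, the carbonyl reductase of airway epithelium, was lower on average in Nrf2 eyes (491 against 1213 CPM). Its change of -1.89 had an SE of 0.79 (edgeR adjusted p = 0.26). It passed as lower in DESeq2 (-1.86, adjusted p = 0.0150) and voom (-2.05, adjusted p = 0.0445), but not in edgeR without the block (-1.25, adjusted p = 0.28). Its highest level, 2431 CPM, was in control 6, the library with the most surface epithelium markers. Among 3 other epoxide hydrolases 0 passed over all 7 mice in edgeR, adjusted or not, and 0 in DESeq2 and voom, with -1.08 (SE 0.76) for Ephx3, -1.24 (SE 1.00) for Ephx4 and -0.04 (SE 0.14) for Lta4h. Ephx3 too was highest in control 6 (51.3 CPM).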

How the data were processed

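The authors amplified RPE RNA with an Ultra Low v4 kit, sequenced it in more than 1 run (which library was in which run is not given in the sources used here) and deposited 1 table of estimated counts per gene. The submitters' processing notes name FastQC and Salmon 0.9.1, and the study's methods name both Salmon and featureCounts on STAR alignments to mm10. Which of these made the table is not given in the sources used here, so its whole numbers were treated as estimated counts. Its rows carry mouse Ensembl identifiers plus the human NFE2L2 of the vector, and 34401 of 34452 mouse rows matched GENCODE M21 (GRCm38). Groups and mouse numbers came from the sample labels, which give the eyes of 1 animal the same number, so the mouse was a block. The study's methods used fewer pairs at this age than the labels give, which pair was left out there is not given, and all 7 were used here. Across genes the deviations of the eyes of a mouse correlated from -0.31 to 0.30.

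Counts were analysed in R 4.3.3 with edgeR 4.0.16 (quasi-likelihood F-test, TMM, filterByExpr with a minimum count of 10, library size over all mouse genes, 6 residual degrees of freedom, Benjamini-Hochberg over 16289 genes, threshold 0.05). SE is the log2 change over the root of F. CPM are per 1000000 mouse counts without TMM. A prior count of 2 entered log2 CPM for ratios, level orders and likeness. Alternatives were DESeq2 1.42.0, limma 3.58.1 (voom with quality weights), other scalings and filters, no block, and leaving out mice. Within-mouse ratios had two-sided exact sign-flip tests (128 patterns), with t intervals shown for size only, and vector relations exact permutation (5040 orders). Scripts were tested on simulated counts. All columns were used.

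The named genes are the 10 members, other genes of the chemistry past the threshold, the 3 genes with the highest r to each member (1 of them is not reported here), human NFE2L2 and defining markers. Por, Aifm2, Adh1, Adh5, Adh7, Dcxr, Akr1c6, Akr1c14, Cbr2, Ephx3, Ephx4 and Lta4h were named after their values were seen. Members, lists and markers were chosen with earlier results of these data known, and support nothing by their choice.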

Additional observations from a re-analysis of the deposited data

Results flagged for a closer look

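In 5 of 34 groups of 7 values, 1 value lay far from the others by Dixon's test, where chance gives about 1 in 20 groups, or 1.7. Cbr3 in control 3 was at 30.2 CPM (next 12.7 CPM), and Ephx1 in the same library at 246 CPM (next 171 CPM). That library carried 1164 CPM of vector transcript, and the part of the vector in these values was not tested. Akr1b8 in Nrf2 2 was at 10.3 CPM (next 1.53 CPM), in the shallowest library. Akr1b3 in Nrf2 3 was at 122 CPM (next 74.6 CPM). The difference in response between Nqo1 and Nqo2 was 0.45 (log2) in mouse 4, below 2.02 in the next mouse, and the Nrf2 eye of mouse 4 had the least vector transcript of its group.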

How the results depend on the processing

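The number of genes called was 1100 without the replicate block, 1943 in DESeq2 (1238 higher, 705 lower), 2594 in voom, 347 with no filter and 97 (without mouse 7) to 1995 (without mouse 4, 977 higher and 1018 lower) with 1 mouse left out. The number of members called was 5 in most settings, 7 without the block and in DESeq2, 6 in voom, and 4 without mouse 7, where Cbr1 did not pass (its log2 change was 1.23 to 1.48 over these fits, 1.23 in that one). Nqo1, Cbr3, Ptgr1 and Ephx1 passed in every setting run. Akr1a1 passed without the block (0.48), in DESeq2 (0.49) and in voom (0.53), and Ephx2 without the block (0.63) and in DESeq2 (0.69). Of the other genes of the chemistry, 5 passed without the block, 7 in DESeq2, 9 in voom, 1 each under upper-quartile scaling, no filter and library sizes over tested genes (this last chosen after seeing the data), and 0 to 11 with 1 mouse left out, the 11 (6 higher, 5 lower) without mouse 4. Without mice 3 and 4 the differences in response of 2.47 (Nqo1 to Nqo2), 2.32 (Cbr3 to Cbr1) and 1.38 (Ephx1 to Ephx2) no longer passed, because 5 mice cannot. With 1 mouse left out those differences were 1.96 to 2.41, 1.93 to 2.23 and 1.11 to 1.36. The causes of the changed counts were not tested. Low counts limit Akr1b8, and shared sequence limits Akr1b3. No result turned its direction among those that passed.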
